A study of Homo sapiens with 6 samples.

Results

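The genes described here are 35 targets of the transcription factor NRF2 and enzymes of detoxification, taken by symbol from the 26485 genes of the deposited tables: regulators of NRF2, the glutathione and thioredoxin systems, the supply of NADPH, aldo-keto reductases, other enzymes that reduce, hydrolyse or conjugate foreign compounds, heme and iron genes, and efflux pumps. RNA-seq was done on 6 libraries, 2 each for PC9-AMG, PC9-BrM4 and PC9, human lung cancer cells that were all cultured in MGS, a name the labels do not expand. PC9 is an established lung adenocarcinoma line that carries an activating EGFR mutation. PC9-AMG and PC9-BrM4 are given as cell line names, with no word on how they were derived, whether either is a single clone, or whether the libraries of a group came from separate cultures. The p-values below therefore measure only the spread between these libraries, which may be technical.

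NRF2, the product of NFE2L2, is held at a low level by KEAP1, which presents it to a ubiquitin ligase. Oxidants and electrophiles modify KEAP1, NRF2 accumulates, pairs with a small MAF protein such as MAFG, and binds antioxidant response elements near genes that make glutathione and NADPH, reduce quinones and aldehydes, and export conjugates. The pathway is often switched on in lung cancers through mutations of KEAP1 or NFE2L2, and aldo-keto reductases and NQO1 are among its most responsive targets there. Protein levels and NRF2 activity were not measured in these libraries.

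The core of the antioxidant response element, TGACNNNGC, was searched on both strands of the RefSeq promoter windows (GRCh38.p14, 250 bases before to 50 after a start). Of the 35 genes, 25 had a window in the table, and 9 of these (36.0%) held at least 1 match. Counted per window, 10 of 31 (32.3%) held a match, against 4687 of 35116 windows of all genes (13.3%). AKR1B10, HMOX1, GSR, PRDX1, FTH1, SLC7A11, ABCC1, ABCC3, CES1 and ALDH3A1 had no window in the table. One match of each of the 9 genes is shown because it is the sequence feature that these promoters share, with the matched letters in capitals, as the gene's own strand reads (an element on the other strand reads GCNNNGTCA).
KEAP1, chr19:10502784-10502812, minus strand: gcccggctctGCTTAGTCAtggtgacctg
GCLM, chr1:93909446-93909474, minus strand: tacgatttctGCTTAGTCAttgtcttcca
GPX2, chr14:64942849-64942877, minus strand: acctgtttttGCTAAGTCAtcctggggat
TXNRD1, chr12:104215670-104215698, plus strand: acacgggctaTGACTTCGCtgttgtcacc
PGD, chr1:10398853-10398881, plus strand: cctcgccgggGCAATGTCAtctaggtgct
ME1, chr6:83431170-83431198, minus strand: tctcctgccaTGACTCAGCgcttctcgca
EPHX1, chr1:225825266-225825294, plus strand: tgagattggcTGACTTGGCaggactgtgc
CBR1, chr21:36069855-36069883, plus strand: tgcgggttctGCAAAGTCAggctagctgg
PIR, chrX:15493289-15493317, minus strand: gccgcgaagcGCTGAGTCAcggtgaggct

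KEAP1 and GCLM share the 9 matched letters GCTTAGTCA. The windows use RefSeq starts, which can differ from the gene spans given below. The matches shown for KEAP1, GCLM, ME1 and EPHX1 lie within those spans. Those of GPX2 and PIR also lie within their gene spans (chr14:64939152-64942905 and chrX:15384801-15493588). The match of GCLM lies 34 bases before the start of its window's RefSeq entry, within the 250 bases printed here (chr1:93909431-93909680, minus strand).
GCLM: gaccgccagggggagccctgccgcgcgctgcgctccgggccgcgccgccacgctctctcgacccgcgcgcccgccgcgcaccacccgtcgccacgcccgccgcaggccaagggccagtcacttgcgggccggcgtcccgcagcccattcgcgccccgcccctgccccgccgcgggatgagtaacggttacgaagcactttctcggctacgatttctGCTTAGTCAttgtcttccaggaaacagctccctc
These matches are a description of letters and not of NRF2 binding. Of the 9 genes, GCLM, PGD, ME1 and EPHX1 were called in at least 1 comparison below. The others, KEAP1, GPX2, TXNRD1, CBR1 and PIR, were called in none. Of all 35 genes, which include those with no window and so no possible match, 21 were called in at least 1 comparison. Whether a match went with a call was not tested.

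Levels are in TPM, a transcript's share of its library corrected for gene length. Each difference is between means of log2(TPM + 1), the first named group minus the second, with the standard error (SE) of the fit. A gene was called, and is said to be higher or lower, where its Benjamini-Hochberg adjusted p in limma was under 0.05 over all 14627 tested genes. All 35 genes passed the filter on low values, and their levels lay between 10.6 and 14775 TPM. No read counts were given, so the depth in reads is unknown. Coverage at 1 TPM, given with the processing below, was highest in both PC9-AMG libraries. Between 13848 and 14171 genes reached 1 TPM in a library. Libraries of the same group correlated at 0.987 to 0.990 and those of different groups at 0.967 to 0.981 (Pearson, across genes, which are not independent). The carcinoma identity rests on EPCAM and keratins (KRT7, KRT8, KRT18 and KRT19 lay between 1776 and 5452 TPM), while the lung lineage markers NKX2-1 and SFTPB were at or below 0.283 TPM in every library. Library names carry the word mix, which is not explained. Of markers for other cells, GFAP, S100B, MOG, OLIG2, AIF1, CX3CR1, P2RY12 and TMEM119 were listed at 0 in every library. ALDH1L1, SOX9, MBP, CNP, CSF1R, CD68, ITGAM and COL1A1 were expressed in all 6. SLC1A3 was listed at 0 in PC9 and had 3.44 and 2.12 TPM in PC9-BrM4. In PC9-BrM4 against PC9, SLC1A3, SOX9 and ITGAM were higher and CD68 was lower. In PC9-AMG against PC9, ITGAM was higher. The 8 astrocyte markers, 5 of them under 1 TPM throughout, summed to between 74.7 and 79.9 TPM in PC9-AMG, 77.5 and 84.05 TPM in PC9-BrM4, and 60.7 and 65.8 TPM in PC9. The 8 oligodendrocyte markers, 6 of them under 1 TPM, summed to between 45.2 and 49.7 TPM in PC9-AMG, 51.3 and 55.7 TPM in PC9-BrM4, and 52.6 and 53.4 TPM in PC9. The 6 fibroblast and vessel markers, 5 of them under 1 TPM, summed to between 10.05 and 16.5 TPM in PC9-AMG, 16.9 and 18.6 TPM in PC9-BrM4, and 10.2 and 11.8 TPM in PC9. The part of these markers in the results was not tested.

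The 35 genes together held 3.70% and 3.81% of the TPM in PC9-AMG libraries, 3.21% and 3.46% in PC9-BrM4 libraries, and 3.97% and 3.92% in PC9 libraries. The groups did not overlap, with PC9-BrM4 lowest and PC9 highest. The sums of the 10 carcinoma markers read beside them stood in the same order. These sums lay between 13376 and 13905 TPM in PC9-AMG, 11456 and 11955 TPM in PC9-BrM4, and 15403 and 15638 TPM in PC9. Single markers did not all keep this order, and EPCAM and CDH1 were highest in PC9-BrM4. EPCAM had 846 and 856 TPM in PC9-BrM4 and 705 and 698 TPM in PC9. CDH1 had 159 and 124 TPM in PC9-BrM4 and 107 and 109 TPM in PC9. The part of the carcinoma markers in the result was not tested. Most of the level of the 35 genes was ferritin, the iron storage protein: its heavy chain FTH1 and light chain FTL, ranked 2 and 3 of all genes by mean level, held 2.29% and 2.35% in PC9-AMG, 1.86% and 2.07% in PC9-BrM4, and 2.38% and 2.35% in PC9. Without ferritin the remaining genes held 1.41% and 1.46% in PC9-AMG, 1.35% and 1.39% in PC9-BrM4, and 1.59% and 1.57% in PC9. In bulk RNA, fewer cells that express a gene and less RNA per cell cannot be told apart.

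In PC9-AMG against PC9, 9 of the 35 genes were lower, while 3.82% of all tested genes were lower. Another 3 were higher, while 3.67% of all tested genes were, and 7.49% were called either way. PC9-BrM4 against PC9 gave 11 lower and 2 higher, beside 6.45% and 9.89% of all tested genes, or 16.3% either way. PC9-AMG against PC9-BrM4 gave 11 higher and 6 lower, beside 6.31% and 12.3%, or 18.6% either way. All of the 35 genes had a mean of at least 20 TPM, and of the 6731 tested genes with such a mean 5.23% were lower and 5.45% higher in PC9-AMG against PC9, 7.37% lower and 11.7% higher in PC9-BrM4 against PC9, and 8.11% higher and 14.6% lower in PC9-AMG against PC9-BrM4. Counted by groups that did not overlap, 17 of the 35 were below PC9 in PC9-AMG and 10 above, beside 35.0% and 24.8% of all tested genes. In PC9-BrM4, 20 were below PC9 and 9 above, beside 21.9% and 39.2%. In PC9-AMG, 9 were below PC9-BrM4 and 14 above, beside 40.5% and 19.0%. The median difference of the 35 genes was -0.16 in PC9-AMG against PC9, where that of all tested genes was -0.05. It was -0.17 in PC9-BrM4 against PC9 (all genes 0.09) and 0.05 in PC9-AMG against PC9-BrM4 (all genes -0.13). The comparisons share libraries and are not independent of each other.

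**Figure D1:**
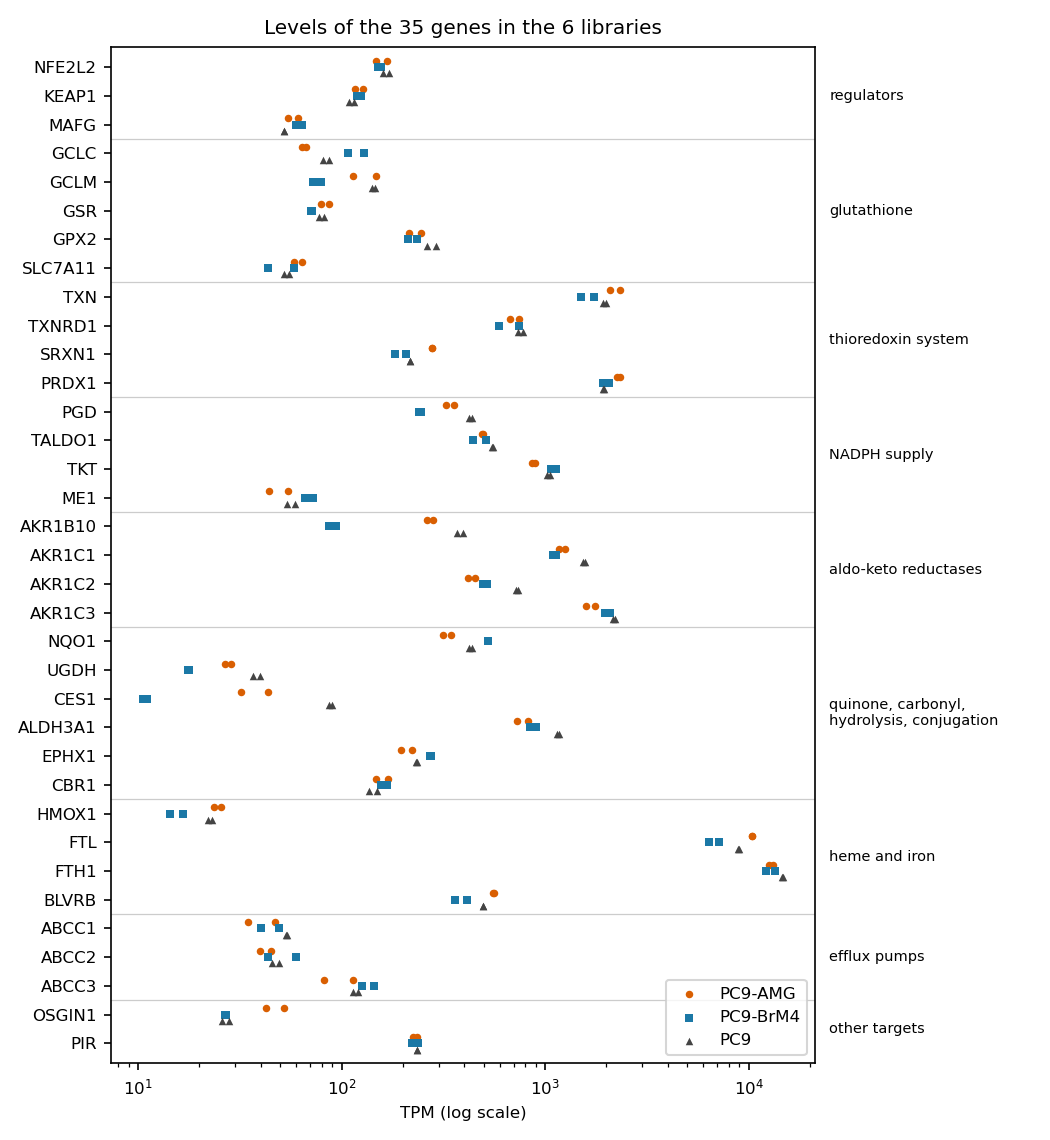
Level of each of the 35 genes in each library (TPM, log axis), with 1 point per library in the order PC9-AMG, PC9-BrM4, PC9 and the genes in groups by role. FTH1 and FTL stand highest, CES1 in PC9-BrM4 is the lowest value at 10.6 TPM, and the 3 regulators lie close together across the lines.

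**Figure D2:**
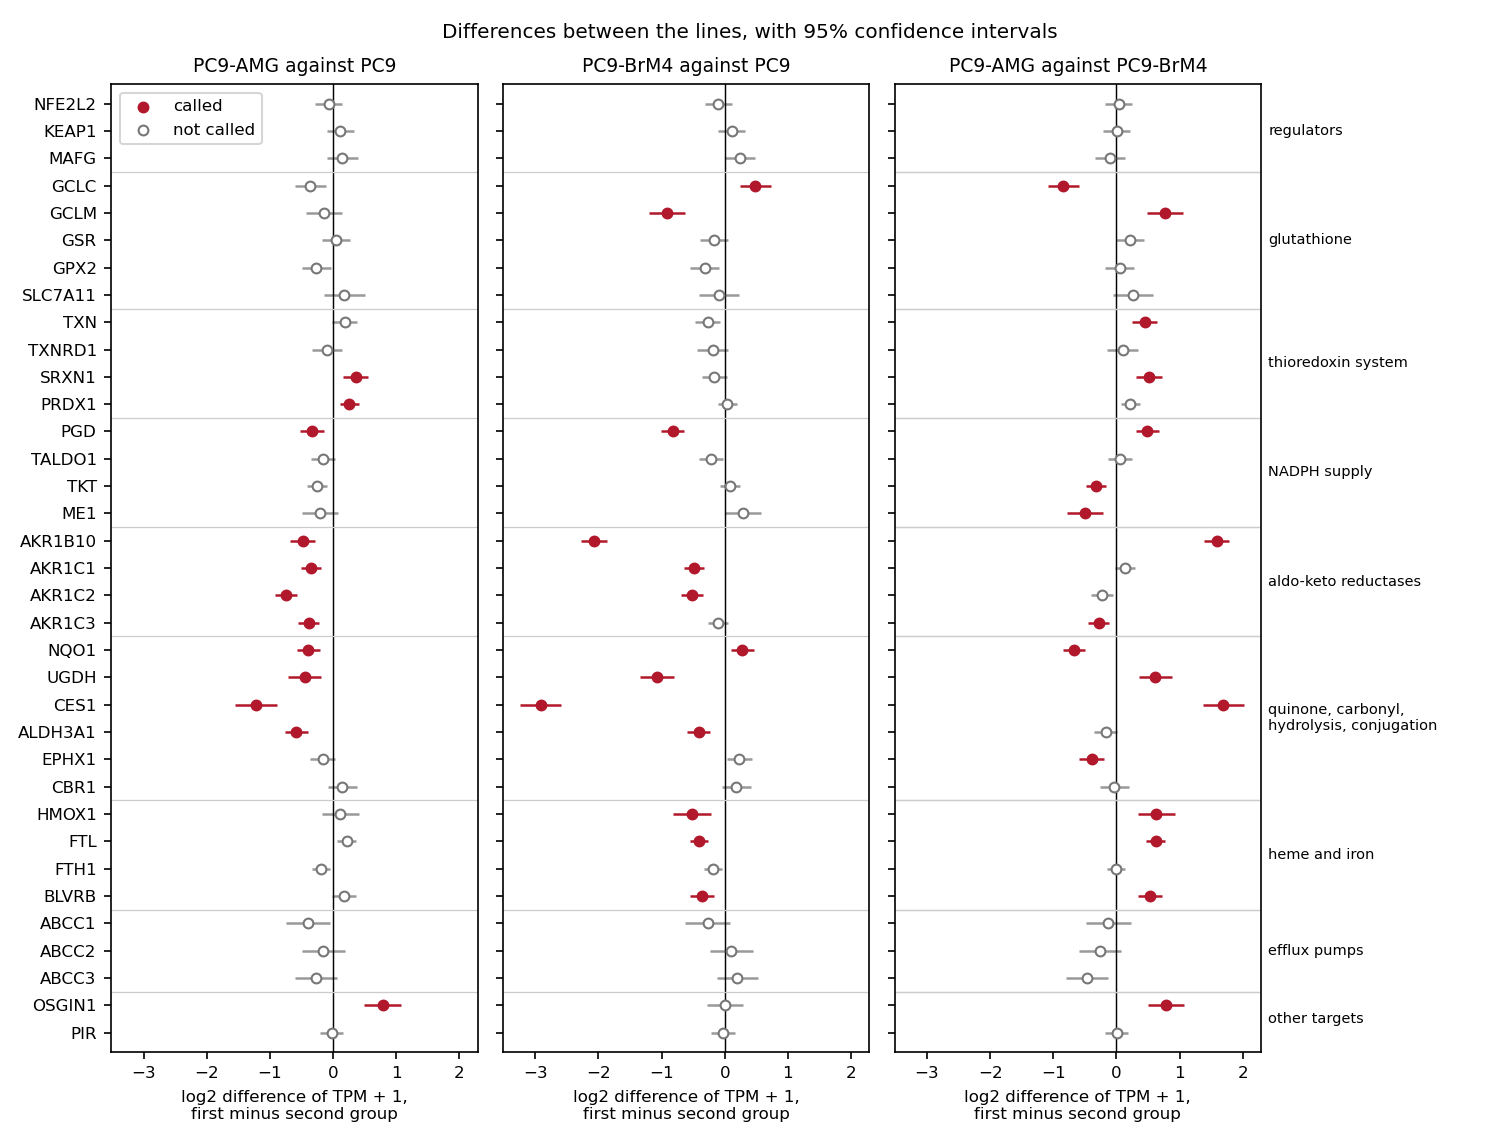
Differences on the log2(TPM + 1) scale with 95% confidence intervals in limma over all 6 libraries, with PC9-AMG against PC9 on the left, PC9-BrM4 against PC9 in the middle and PC9-AMG against PC9-BrM4 on the right. Filled points are called genes: CES1 and AKR1B10 lie farthest to the left in PC9-BrM4 against PC9, at -2.92 and -2.07, while none of the regulators is filled.

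The regulators were not called in any comparison. NFE2L2, which encodes NRF2 (chr2:177230303-177265131), had 148 and 167 TPM in PC9-AMG, 157 and 150 TPM in PC9-BrM4, and 171 and 160 TPM in PC9. KEAP1 (chr19:10486120-10503378) had 127 and 116 TPM in PC9-AMG, 118 and 124 TPM in PC9-BrM4, and 115 and 109 TPM in PC9. MAFG, a small MAF partner of NRF2 (chr17:81918269-81927711), had 61.0 and 54.7 TPM in PC9-AMG, 64.1 and 59.8 TPM in PC9-BrM4, and 52.2 and 51.9 TPM in PC9. The NFE2L2 ranges of PC9-AMG overlapped those of both other lines, and the KEAP1 and MAFG values of PC9-AMG and PC9-BrM4 lay above PC9. For NFE2L2 the 95% confidence interval of the difference was -0.29 to 0.14 in PC9-AMG against PC9 and -0.32 to 0.11 in PC9-BrM4 against PC9.

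Of the genes that make and use glutathione, PC9-AMG and PC9 showed no called difference, and the 2 subunits of glutamate-cysteine ligase, the enzyme of the rate-limiting step, went opposite ways in PC9-BrM4. The catalytic subunit GCLC (chr6:53497341-53545129) had 64.0 and 66.7 TPM in PC9-AMG, 129 and 108 TPM in PC9-BrM4, and 86.9 and 81.3 TPM in PC9. The modifier subunit GCLM (chr1:93885200-93909598), whose promoter is printed above, had 113 and 148 TPM in PC9-AMG, 79.5 and 71.9 TPM in PC9-BrM4, and 146 and 141 TPM in PC9. Both PC9-BrM4 libraries were the highest of all for GCLC and the lowest of all for GCLM. GCLC was higher in PC9-BrM4 than in PC9 (0.48, SE 0.11, adjusted p = 0.0168), and GCLM was lower (-0.92, SE 0.13, adjusted p = 0.00131). In PC9-AMG against PC9-BrM4, GCLC was lower (-0.84, SE 0.11, adjusted p = 0.00101) and GCLM higher (0.77, SE 0.13, adjusted p = 0.00349).

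The ratio of GCLC to GCLM in TPM put these values on 1 scale. It was 0.565 and 0.451 in PC9-AMG, 1.62 and 1.502 in PC9-BrM4, and 0.597 and 0.575 in PC9, so GCLC exceeded GCLM in both PC9-BrM4 libraries and in none of the other 4. In PC9-AMG against PC9 the differences of GCLC (-0.36, adjusted p = 0.0791) and GCLM (-0.15, adjusted p = 0.510) were not called. The call of GCLC in PC9-BrM4 against PC9 was lost without PC9-BrM4 replicate 1, PC9 replicate 1 or PC9 replicate 2 (adjusted p up to 0.161), while that of GCLM was kept without each library.

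The other 3 genes of this group were not called in any comparison. SLC7A11, the cystine transporter that feeds glutathione synthesis, had 58.0 and 63.5 TPM in PC9-AMG, 58.2 and 43.3 TPM in PC9-BrM4, and 55.1 and 51.9 TPM in PC9. GSR, which regenerates reduced glutathione with NADPH, lay between 70.9 and 86.8 TPM over all libraries. GPX2, a glutathione peroxidase of epithelia, lay between 211 and 292 TPM, with both PC9 libraries the highest (-0.27, adjusted p = 0.145 in PC9-AMG and -0.32, adjusted p = 0.0655 in PC9-BrM4, each against PC9).

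Of the 4 genes of the thioredoxin system, which reduces protein disulfides and peroxides, 2 were higher in PC9-AMG than in PC9 and 2 higher in PC9-AMG than in PC9-BrM4. SRXN1, sulfiredoxin, which repairs overoxidised peroxiredoxins (chr20:646624-653370), had 277 and 279 TPM in PC9-AMG, 206 and 182 TPM in PC9-BrM4, and 217 and 218 TPM in PC9. PRDX1, an abundant peroxiredoxin (chr1:45511035-45522890), had 2267 and 2342 TPM in PC9-AMG, 1916 and 2056 TPM in PC9-BrM4, and 1939 and 1918 TPM in PC9. Both PC9-AMG libraries were the highest for each of these genes. SRXN1 was higher in PC9-AMG than in PC9 (0.36, SE 0.09, adjusted p = 0.0430) and than in PC9-BrM4 (0.52, SE 0.09, adjusted p = 0.00411). PRDX1 was higher in PC9-AMG than in PC9 (0.26, SE 0.07, adjusted p = 0.0489), and its difference from PC9-BrM4 was 0.22 (adjusted p = 0.0517).

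TXN, thioredoxin itself (chr9:110243812-110256640), had 2094 and 2341 TPM in PC9-AMG, 1502 and 1746 TPM in PC9-BrM4, and 1986 and 1917 TPM in PC9. The 3 groups did not overlap, with PC9-BrM4 lowest. TXN was higher in PC9-AMG than in PC9-BrM4 (0.45, SE 0.09, adjusted p = 0.00747). Against PC9 its difference was 0.18 in PC9-AMG (adjusted p = 0.229) and -0.27 in PC9-BrM4 (adjusted p = 0.0675). TXNRD1, the reductase that recharges thioredoxin, lay between 591 and 778 TPM and was not called. The calls of SRXN1 and PRDX1 in PC9-AMG against PC9 were lost without any 1 of the 4 libraries (adjusted p up to 0.297 and 0.349). That of TXN was lost without PC9-AMG replicate 2 or PC9-BrM4 replicate 1 (adjusted p up to 0.0691).

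Among the 4 genes listed under NADPH supply, PGD was the one called against PC9. PGD, 6-phosphogluconate dehydrogenase of the oxidative pentose phosphate pathway (chr1:10398992-10420511), had 357 and 325 TPM in PC9-AMG, 245 and 240 TPM in PC9-BrM4, and 425 and 436 TPM in PC9. The 3 groups did not overlap. PGD was lower in PC9-BrM4 than in PC9 (-0.83, SE 0.08, adjusted p = 0.000183) and higher in PC9-AMG than in PC9-BrM4 (0.49, SE 0.08, adjusted p = 0.00366). It was also lower in PC9-AMG than in PC9 (-0.34, SE 0.08, adjusted p = 0.0397), a call lost without any 1 of the 4 libraries (adjusted p up to 0.318).

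TKT, transketolase of the non-oxidative pentose phosphate pathway (chr3:53224707-53256114), had 888 and 866 TPM in PC9-AMG, 1134 and 1070 TPM in PC9-BrM4, and 1024 and 1059 TPM in PC9. ME1, the cytosolic malic enzyme (chr6:83210391-83431219), had 43.8 and 54.5 TPM in PC9-AMG, 72.4 and 66.1 TPM in PC9-BrM4, and 59.3 and 54.0 TPM in PC9. Against PC9 neither was called, and both were lower in PC9-AMG than in PC9-BrM4 (TKT -0.33, SE 0.07, adjusted p = 0.0120; ME1 -0.49, SE 0.13, adjusted p = 0.0264). The call of TKT was lost without PC9-AMG replicate 2 or PC9-BrM4 replicate 1 (adjusted p up to 0.0587). The call of ME1 was lost without PC9-AMG replicate 1, PC9-BrM4 replicate 1 or PC9-BrM4 replicate 2 (adjusted p up to 0.160). TALDO1, transaldolase, lay between 441 and 553 TPM and was not called.

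All 4 aldo-keto reductases, which reduce aldehydes, ketones and steroids with NADPH, were lower in PC9-AMG than in PC9, and 3 of the 4 were lower in PC9-BrM4 than in PC9. Their median difference was -0.43 in PC9-AMG and -0.50 in PC9-BrM4. AKR1B10, which reduces retinal and lipid aldehydes (chr7:134527592-134541414), had 262 and 283 TPM in PC9-AMG, 93.3 and 86.7 TPM in PC9-BrM4, and 393 and 369 TPM in PC9. AKR1C1 (chr10:4963262-4977966) had 1173 and 1258 TPM in PC9-AMG, 1087 and 1136 TPM in PC9-BrM4, and 1561 and 1540 TPM in PC9. For both genes the groups did not overlap, with PC9-BrM4 lowest and PC9 highest. AKR1C2 (chr10:4987776-5018033) had 452 and 415 TPM in PC9-AMG, 519 and 495 TPM in PC9-BrM4, and 734 and 720 TPM in PC9. AKR1C3 (chr10:5048766-5107686) had 1585 and 1753 TPM in PC9-AMG, 1967 and 2080 TPM in PC9-BrM4, and 2202 and 2155 TPM in PC9. For these, PC9-AMG was the lowest of 3 groups that did not overlap. The products of the AKR1C genes act on progesterone, androgens and prostaglandins as well as on aldehydes.

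AKR1B10 was lower in PC9-BrM4 than in PC9 (-2.07, SE 0.09, adjusted p = 1.15e-06), lower in PC9-AMG than in PC9 (-0.48, SE 0.09, adjusted p = 0.0155), and higher in PC9-AMG than in PC9-BrM4 (1.59, SE 0.09, adjusted p = 8.83e-06). AKR1C1 was lower by 0.35 in PC9-AMG (adjusted p = 0.0206) and by 0.48 in PC9-BrM4 (adjusted p = 0.00182), each against PC9. AKR1C2 was lower by 0.74 in PC9-AMG (adjusted p = 0.00171) and by 0.52 in PC9-BrM4 (adjusted p = 0.00209). AKR1C3 was lower in PC9-AMG than in PC9 (-0.39, adjusted p = 0.0168) and than in PC9-BrM4 (-0.28, adjusted p = 0.0278), and in PC9-BrM4 against PC9 its difference was -0.11 (adjusted p = 0.364). In PC9-AMG against PC9 the call of AKR1C2 was kept without each library, and those of AKR1B10, AKR1C1 and AKR1C3 were lost without any 1 of the 4 (adjusted p up to 0.191, 0.213 and 0.175). The call of AKR1C3 in PC9-AMG against PC9-BrM4 was lost without PC9-AMG replicate 1, PC9-BrM4 replicate 1 or PC9-BrM4 replicate 2 (adjusted p up to 0.112).

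Single AKR values are uncertain because the genes are near copies that can share reads. The coding sequences of AKR1C1 and AKR1C2 are identical at 98.0% of 972 bases (GENCODE 29), those of AKR1C3 and either of them at 91.9% and 91.3%, and those of AKR1B10 and AKR1B15 at 92.7%. AKR1C4, a further copy, was listed at 0 in PC9-BrM4 replicate 1 and at 17.1 TPM in PC9-BrM4 replicate 2. The 4 aldo-keto reductases summed to 3473 and 3709 TPM in PC9-AMG, 3666 and 3798 TPM in PC9-BrM4, and 4890 and 4784 TPM in PC9, so the sum too was highest in PC9. AKR1B15 had 28.1 and 26.7 TPM in PC9-AMG, 16.8 and 17.8 TPM in PC9-BrM4, and 29.99 and 28.98 TPM in PC9. AKR1B1, the less alike aldose reductase (77.1% identical to AKR1B10), had 1741 and 1691 TPM in PC9-AMG, 1377 and 1453 TPM in PC9-BrM4, and 1932 and 1892 TPM in PC9. Both were lower in PC9-BrM4 than in PC9 (AKR1B15 -0.74, adjusted p = 0.00316; AKR1B1 -0.43, adjusted p = 0.00237), and the call of AKR1B1 was lost without PC9 replicate 1 (adjusted p = 0.0501).

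**Figure D3:**
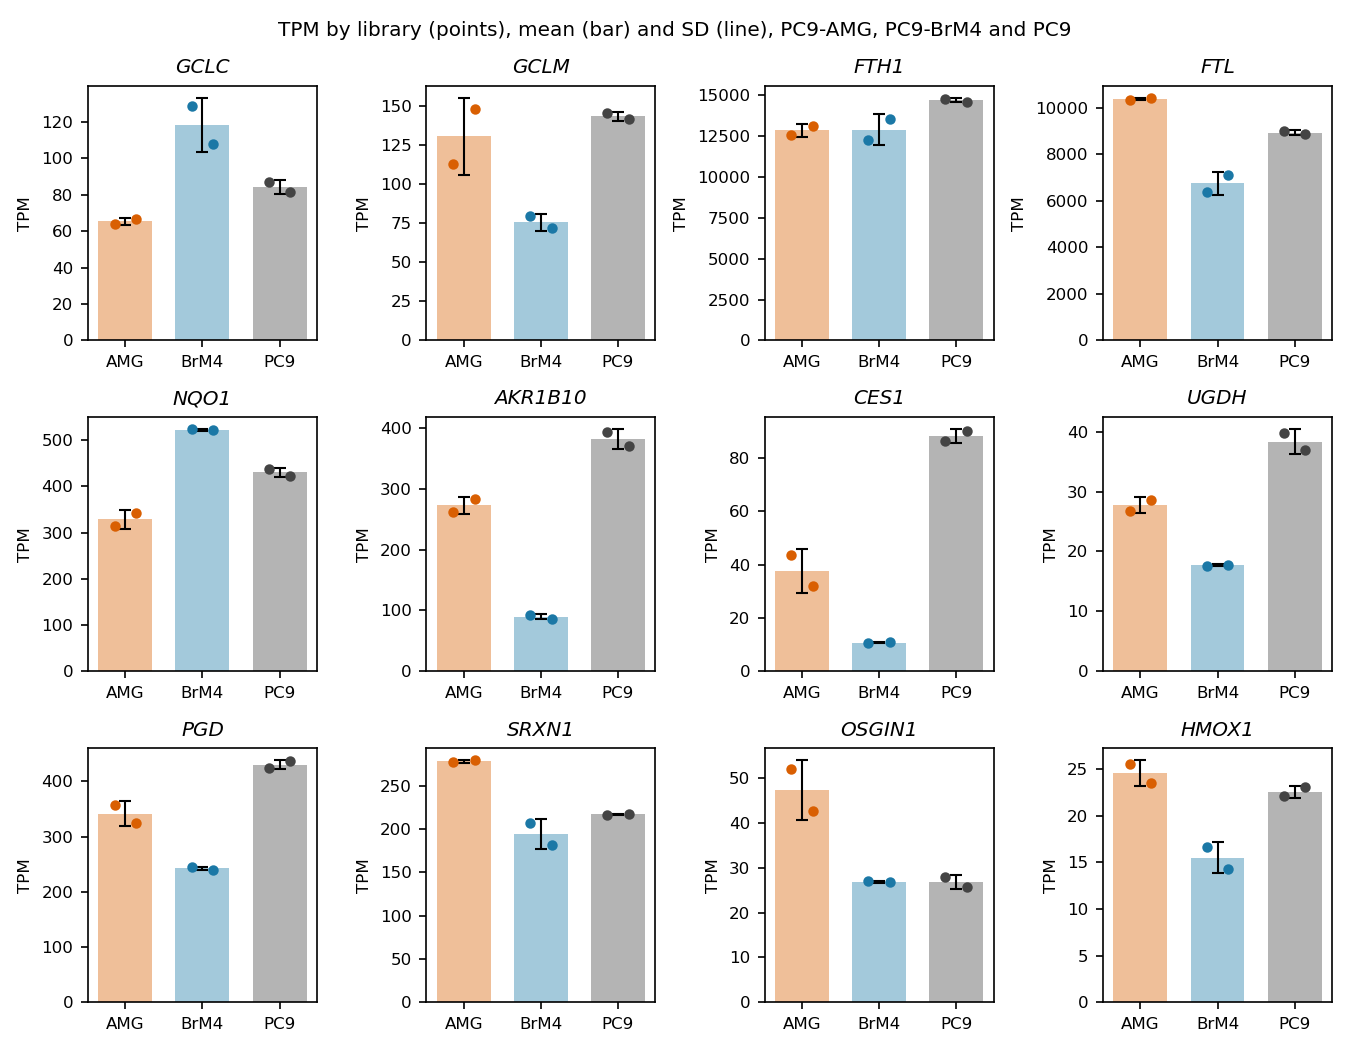
Levels in TPM of 12 of the genes in each library, with points for the libraries, a bar for the group mean and a line for the SD (n = 2 each), PC9-AMG (AMG) on the left, then PC9-BrM4 (BrM4) and PC9, on linear axes from 0. AKR1B10 and CES1 are at or below 93.3 TPM and 11.03 TPM in PC9-BrM4, and NQO1 is highest in PC9-BrM4 and lowest in PC9-AMG.

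Of the enzymes that reduce quinones and carbonyls, hydrolyse or conjugate, CES1 had the largest differences on the log2 scale. CES1, a carboxylesterase that cleaves ester drugs and lipids (chr16:55802852-55833163), had 43.5 and 31.9 TPM in PC9-AMG, 10.6 and 11.03 TPM in PC9-BrM4, and 86.5 and 90.1 TPM in PC9. It was lower in PC9-BrM4 than in PC9 (-2.92, SE 0.15, adjusted p = 2.18e-06), lower in PC9-AMG than in PC9 (-1.22, SE 0.15, adjusted p = 0.00280), and higher in PC9-AMG than in PC9-BrM4 (1.70, SE 0.15, adjusted p = 9.58e-05). UGDH, which makes the UDP-glucuronate used to conjugate drugs (chr4:39498755-39527598), had 26.8 and 28.7 TPM in PC9-AMG, 17.6 and 17.8 TPM in PC9-BrM4, and 39.8 and 36.8 TPM in PC9. Both genes kept 1 order, with PC9-BrM4 lowest, PC9-AMG between and PC9 highest, and no overlap. UGDH was lower by 1.07 in PC9-BrM4 than in PC9 (SE 0.12, adjusted p = 0.000334) and higher by 0.62 in PC9-AMG than in PC9-BrM4 (SE 0.12, adjusted p = 0.00700). Its lower level in PC9-AMG than in PC9 (-0.45, SE 0.12, adjusted p = 0.0494) was no longer called without any 1 of the 4 libraries (adjusted p up to 0.395).

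NQO1, the quinone reductase that serves as a standard readout of NRF2, had another order of the lines. NQO1 (chr16:69709401-69726668) had 314 and 343 TPM in PC9-AMG, 524 and 521 TPM in PC9-BrM4, and 438 and 423 TPM in PC9. PC9-BrM4 was highest and PC9-AMG lowest, with no overlap. It was lower in PC9-AMG than in PC9 (-0.39, SE 0.08, adjusted p = 0.0222), higher in PC9-BrM4 than in PC9 (0.28, SE 0.08, adjusted p = 0.0414), and lower in PC9-AMG than in PC9-BrM4 (-0.67, SE 0.08, adjusted p = 0.000584). The last of these calls was kept without each library, while both calls against PC9 were lost without any 1 of their 4 libraries (adjusted p up to 0.229 in PC9-AMG and 0.329 in PC9-BrM4).

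ALDH3A1, an aldehyde dehydrogenase (chr17:19737985-19748433), had 821 and 729 TPM in PC9-AMG, 839 and 904 TPM in PC9-BrM4, and 1147 and 1171 TPM in PC9. PC9 was above the other lines in every library. ALDH3A1 was lower than in PC9 by 0.58 in PC9-AMG (SE 0.08, adjusted p = 0.00559) and by 0.41 in PC9-BrM4 (SE 0.08, adjusted p = 0.00868). The first call was lost without PC9 replicate 2 (adjusted p = 0.0621), and the second without PC9-BrM4 replicate 1, PC9 replicate 1 or PC9 replicate 2 (adjusted p up to 0.0941). EPHX1, microsomal epoxide hydrolase (chr1:225810074-225845561), had 221 and 196 TPM in PC9-AMG, 271 and 276 TPM in PC9-BrM4, and 231 and 234 TPM in PC9. It was lower in PC9-AMG than in PC9-BrM4 (-0.39, SE 0.09, adjusted p = 0.0146), a call lost without PC9-AMG replicate 2 or PC9-BrM4 replicate 1 (adjusted p up to 0.0695). CBR1, a carbonyl reductase, lay between 136 and 169 TPM and was not called.

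Of the 4 heme and iron genes, 3 were lower in PC9-BrM4 than in PC9, and their median difference was -0.38 there. HMOX1, heme oxygenase, which opens the heme ring (chr22:35381067-35394214), had 25.5 and 23.6 TPM in PC9-AMG, 16.7 and 14.3 TPM in PC9-BrM4, and 22.1 and 23.04 TPM in PC9. BLVRB, which reduces biliverdin and flavins (chr19:40447784-40465818), had 553 and 562 TPM in PC9-AMG, 359 and 411 TPM in PC9-BrM4, and 495 and 494 TPM in PC9. FTL (chr19:48965309-48966879) had 10337 and 10408 TPM in PC9-AMG, 6395 and 7116 TPM in PC9-BrM4, and 9012 and 8870 TPM in PC9. In all 3 genes PC9-AMG was highest and PC9-BrM4 lowest, with no overlap. Against PC9, PC9-BrM4 was lower in HMOX1 (-0.52, SE 0.13, adjusted p = 0.0267), BLVRB (-0.36, SE 0.09, adjusted p = 0.0189) and FTL (-0.41, SE 0.07, adjusted p = 0.00307). Against PC9-BrM4, PC9-AMG was higher in HMOX1 (0.63, adjusted p = 0.0105), BLVRB (0.54, adjusted p = 0.00274) and FTL (0.62, adjusted p = 0.000307). Against PC9, no gene of the group was called in PC9-AMG (FTL 0.21, adjusted p = 0.0776). Of 8 microglia and leukocyte markers, 5 were under 1 TPM in every library, with AIF1, CX3CR1, P2RY12 and TMEM119 at 0. The 8 summed to between 225 and 246 TPM in PC9-AMG, 166 and 181 TPM in PC9-BrM4, and 226 and 232 TPM in PC9, mostly through the lysosomal gene CD68. CSF1R and ITGAM also contributed, at or below 9.96 TPM in each library.

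FTH1, the ferritin heavy chain with ferroxidase activity, was not called; it had 12556 and 13138 TPM in PC9-AMG, 12227 and 13555 TPM in PC9-BrM4, and 14775 and 14591 TPM in PC9. The ratio of FTH1 to FTL in TPM was 1.21 and 1.26 in PC9-AMG, 1.91 and 1.90 in PC9-BrM4, and 1.64 and 1.64 in PC9. The transcripts of the chains were thus in a different proportion in each line, while the proteins were not measured. Among PC9-BrM4 against PC9, the call of HMOX1 was lost without PC9-BrM4 replicate 2, PC9 replicate 1 or PC9 replicate 2 (adjusted p up to 0.211), and that of BLVRB without PC9-BrM4 replicate 1, PC9 replicate 1 or PC9 replicate 2 (adjusted p up to 0.152). HMOX1 in PC9-AMG against PC9-BrM4 was no longer called without PC9-AMG replicate 1 (adjusted p = 0.0565).

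**Figure D4:**
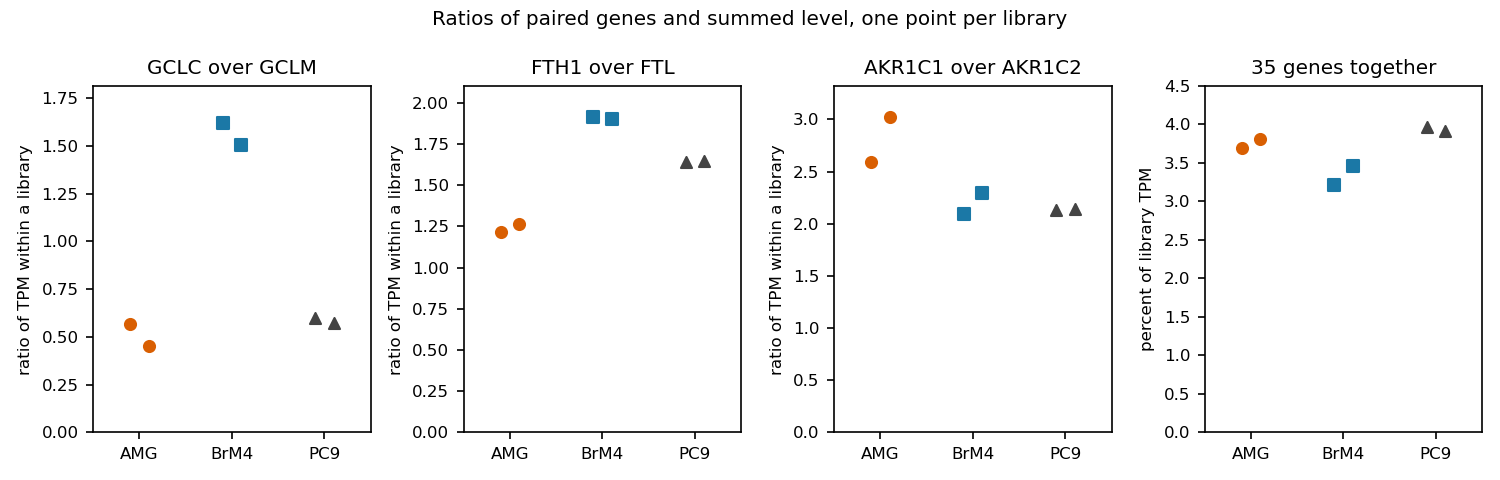
Ratios of TPM between paired genes, and the share of library TPM held by the 35 genes, with 1 point per library, PC9-AMG (AMG) on the left, then PC9-BrM4 (BrM4) and PC9, on linear axes from 0. GCLC over GCLM is at 1.62 and 1.502 in PC9-BrM4 and at or below 0.597 in the other lines, FTH1 over FTL is lowest in PC9-AMG and highest in PC9-BrM4, and AKR1C1 over AKR1C2 is highest in PC9-AMG, at 2.59 and 3.03.

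The efflux pumps ABCC1, ABCC2 and ABCC3, which export glutathione and glucuronide conjugates, were not called in any comparison. ABCC1 lay between 34.7 and 54.1 TPM, ABCC2 between 39.9 and 59.4 TPM, and ABCC3 between 82.1 and 143 TPM over the 6 libraries. The widest difference was that of ABCC3 in PC9-AMG against PC9-BrM4 (-0.47, SE 0.15, adjusted p = 0.0512). OSGIN1, a growth inhibitor induced by oxidative stress (chr16:83953222-83966332), had 51.9 and 42.5 TPM in PC9-AMG, 27.0 and 26.7 TPM in PC9-BrM4, and 27.9 and 25.7 TPM in PC9. Both PC9-AMG libraries stood above the other 4. OSGIN1 was higher in PC9-AMG than in PC9 (0.79, SE 0.13, adjusted p = 0.0103) and than in PC9-BrM4 (0.79, SE 0.13, adjusted p = 0.00341). The first call was lost without PC9-AMG replicate 1, PC9 replicate 1 or PC9 replicate 2 (adjusted p up to 0.0984). PIR, pirin, an iron-binding nuclear protein, lay between 223 and 236 TPM and was not called.

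Of the 42 calls on these genes, 20 were kept under every alternative scaling, filter, pseudocount, unit, table, model and left-out library. In PC9-AMG against PC9 these were AKR1C2 and CES1. In PC9-BrM4 against PC9 they were AKR1B10, AKR1C1, AKR1C2, CES1, GCLM, PGD and UGDH. In PC9-AMG against PC9-BrM4 they were AKR1B10, BLVRB, CES1, FTL, GCLC, GCLM, NQO1, OSGIN1, PGD, SRXN1 and UGDH. No call changed direction under any of them. With each library centred on its median, the calls of AKR1C1, AKR1C3, NQO1, PGD, UGDH and PRDX1 in PC9-AMG against PC9, of NQO1 in PC9-BrM4 against PC9, and of AKR1C3, EPHX1, ME1 and TKT in PC9-AMG against PC9-BrM4 were lost. FTL in PC9-BrM4 against PC9 was no longer called with no filter on low values or with moderation without the trend (adjusted p up to 0.0717).

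The 6 lists of related genes that are not among the 35, with 81 of 86 genes tested, were read beside them. The median differences of the lists lay between -0.19 and 0.31 in PC9-AMG against PC9 (all tested genes -0.05), -0.06 and 0.33 in PC9-BrM4 against PC9 (0.09), and -0.25 and -0.02 in PC9-AMG against PC9-BrM4 (-0.13). The counts below stand beside these shares of all tested genes. In PC9-AMG against PC9, 3.67% were higher and 3.82% lower. In PC9-BrM4 against PC9, 9.89% were higher and 6.45% lower. In PC9-AMG against PC9-BrM4, 6.31% were higher and 12.3% lower. ABCB1, the multidrug efflux pump, was listed at 0 in every library and was not tested. Of 10 other regulators of NRF2, none was called in PC9-AMG against PC9, 2 were higher in PC9-BrM4 than in PC9 (NFE2L3 and SQSTM1), and 1 was lower in PC9-AMG than in PC9-BrM4. NFE2L3, which encodes the relative NRF3, had 65.8 and 72.7 TPM in PC9-AMG, 131 and 111 TPM in PC9-BrM4, and 65.2 and 65.7 TPM in PC9. It was higher in PC9-BrM4 than in PC9 (0.87, SE 0.11, adjusted p = 0.000829) and lower in PC9-AMG than in PC9-BrM4 (-0.80, SE 0.11, adjusted p = 0.00151).

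Of 26 other glutathione and thioredoxin genes, 3 were higher and 0 lower in PC9-AMG against PC9 (PRDX6, GSTM3 and SLC3A2), 4 higher (GSS, GGCT, PRDX6 and SLC3A2) and 2 lower in PC9-BrM4 against PC9, and 2 higher and 0 lower in PC9-AMG against PC9-BrM4. SLC3A2, the heavy chain that carries SLC7A11 to the membrane, differed from PC9 by 0.57 in PC9-AMG and 0.33 in PC9-BrM4. GGT1, which cleaves extracellular glutathione, had 21.8 and 17.2 TPM in PC9-AMG, 3.72 and 3.36 TPM in PC9-BrM4, and 12.6 and 14.3 TPM in PC9. It was lower in PC9-BrM4 than in PC9 (-1.67, SE 0.17, adjusted p = 0.000187) and higher in PC9-AMG than in PC9-BrM4 (2.17, SE 0.17, adjusted p = 4.98e-05). The glutathione transferase GSTM3 had 47.0 and 54.8 TPM in PC9-AMG, 22.4 and 21.2 TPM in PC9-BrM4, and 37.1 and 33.2 TPM in PC9. GSTM3 was lower in PC9-BrM4 than in PC9 (-0.66, SE 0.13, adjusted p = 0.00706; 0.0954 without PC9 replicate 1) and higher in PC9-AMG than in PC9-BrM4 (1.18, SE 0.13, adjusted p = 0.000312). Of 12 other genes listed under NADPH supply, 3 were lower in PC9-AMG than in PC9 (IDH1, IDH2 and NNT). In PC9-BrM4, 2 were higher than in PC9 (MTHFD1 and NADK). In PC9-AMG, 3 were lower than in PC9-BrM4 (IDH1, IDH2 and NADK). NNT, the mitochondrial transhydrogenase, had 24.9 and 27.8 TPM in PC9-AMG, 42.9 and 31.1 TPM in PC9-BrM4, and 44.9 and 45.3 TPM in PC9. NNT was lower in PC9-AMG than in PC9 (-0.76, SE 0.15, adjusted p = 0.0213), a call lost without any 1 of the 4 libraries (adjusted p up to 0.125).

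Of 22 tested reductases, dehydrogenases, hydrolases and conjugating enzymes outside the 35, 4 were lower in PC9-AMG than in PC9 (ALDH1A3, ALDH3A2, ALDH3B1 and UGT1A6), 3 higher (AKR7A2, ALDH1A3 and TRIM16) and 5 lower (AKR1B1, AKR1B15, ALDH1A1, ALDH2 and ALDH3B1) in PC9-BrM4 than in PC9, and 4 higher (AKR1B1, AKR1B15, ALDH1A1 and ALDH2) and 6 lower in PC9-AMG than in PC9-BrM4. UGT1A6 overlaps other genes of its locus and TRIM16 has a near copy, so their values are uncertain. The aldehyde dehydrogenases differed among themselves. ALDH1A3, which makes retinoic acid, had 152 and 167 TPM in PC9-AMG, 456 and 375 TPM in PC9-BrM4, and 229 and 221 TPM in PC9. ALDH2, the mitochondrial acetaldehyde dehydrogenase, had 40.8 and 42.8 TPM in PC9-AMG, 18.7 and 19.97 TPM in PC9-BrM4, and 35.4 and 37.4 TPM in PC9. In PC9-BrM4 against PC9, ALDH1A3 was higher (0.87, SE 0.11, adjusted p = 0.000569) and ALDH2 lower (-0.88, SE 0.12, adjusted p = 0.000924). ALDH1A1 was listed at 0 in both PC9-BrM4 libraries and had 1.22 and 0.714 TPM in PC9-AMG and 2.20 and 2.39 TPM in PC9.

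Of 6 other heme and iron genes, BLVRA was lower in PC9-AMG than in PC9; HMOX2 was higher and BLVRA lower in PC9-BrM4 than in PC9, and BLVRA was higher and HMOX2 lower in PC9-AMG than in PC9-BrM4. BLVRA, which reduces biliverdin to bilirubin, had 44.4 and 47.3 TPM in PC9-AMG, 32.5 and 33.3 TPM in PC9-BrM4, and 59.7 and 62.9 TPM in PC9. It was lower in PC9-BrM4 than in PC9 (-0.88, SE 0.11, adjusted p = 0.000599). Of 5 other efflux pumps, ABCC4, which exports cyclic nucleotides and prostaglandins, was the called one. ABCC4 had 7.27 and 6.57 TPM in PC9-AMG, 17.8 and 11.8 TPM in PC9-BrM4, and 3.83 and 3.88 TPM in PC9. It was higher in PC9-BrM4 than in PC9 (1.68, SE 0.20, adjusted p = 0.000507) and lower in PC9-AMG than in PC9-BrM4 (-0.97, SE 0.20, adjusted p = 0.00934), where the call was lost without PC9-AMG replicate 2 or PC9-BrM4 replicate 1 (adjusted p up to 0.0758). Of the list genes called here with no adjusted p printed, ALDH1A1, ALDH3B1 and TRIM16 in PC9-BrM4 against PC9, and AKR1B15, ALDH1A3, ALDH2 and UGT1A6 in PC9-AMG against PC9-BrM4, kept their calls without each library; the others lost them without at least 1 (adjusted p up to 0.378).

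Neighbours on the chromosome were read beside the called genes, as up to 20 tested genes nearest on each side. In PC9-BrM4 against PC9, AKR1B10 differed by -2.07 and its 40 neighbours by a median of -0.16, 9 of them lower and 2 higher. CES1 differed by -2.92 with a neighbour median of 0.18, PGD by -0.83 with 0.21, UGDH by -1.07 with 0.09, and GCLM by -0.92 with 0.08. In PC9-AMG against PC9, OSGIN1 differed by 0.79, while its 40 neighbours had a median of -0.19, with 5 lower and 0 higher. PRDX1 differed by 0.26 in that comparison, and its 40 neighbours had a median of 0.15, with 7 higher and 0 lower. SRXN1 differed by 0.36, and its 29 neighbours had a median of -0.14, with 1 higher and 1 lower. In PC9-BrM4 against PC9, NQO1 differed by 0.28 and its 40 neighbours by a median of 0.27, with 6 higher and 1 lower. NQO1 differed by -0.67 in PC9-AMG against PC9-BrM4, where its neighbours had a median of -0.41 and 15 of 40 were lower. There TKT differed by -0.33 with a neighbour median of -0.30, and GCLC by -0.84 with -0.32. FTL differed by 0.62 and BLVRB by 0.54 in that comparison, where their neighbours had medians of 0.26 and 0.18, with 10 and 9 of 40 higher. The AKR1C genes lie side by side and count among each other's neighbours. They had only 31 to 33 neighbours, since few tested genes lie on 1 side. Their neighbour medians were between -0.23 and -0.22 in PC9-AMG against PC9, and about 0.15 in PC9-BrM4 against PC9. In PC9-AMG against PC9-BrM4 these medians lay between -0.39 and -0.38. There AKR1C3 differed by -0.28, and 11 of its 33 neighbours were lower and 0 higher. The part of these neighbourhoods in the values of the genes was not tested.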

How the data were processed

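Polyadenylated RNA of 6 libraries was analysed, 2 per line. Per the labels' protocols, RNA was extracted with TRIzol and libraries were made with a stranded mRNA kit. The submitters' processing notes name HISAT2 2.1.0, StringTie 1.3.4d and the build hg38; the annotation is not given in the sources used here. Per the file headers, each deposited library table holds TPM, FPKM and the coverage signal of each gene, all computed by the authors. TPM sums to the same total in each library, and FPKM is scaled to depth. Coverage at 1 TPM was 0.822 and 0.749 reads per base in PC9-AMG, 0.636 and 0.606 in PC9-BrM4, and 0.664 and 0.627 in PC9. The part of this difference between lines in the results was not tested. With no read counts, no counting interval was computed.

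TPM rows of 1 symbol were summed. The 35 genes have the same values, within 0.001 TPM, in the deposited table of TPM over all libraries. Genes reaching 1 TPM in 2 or more libraries (14627) entered limma 3.58.1 (R 4.3.3) as log2(TPM + 1), with group means, a variance trend and empirical Bayes moderation (3 residual and 6.81 prior degrees of freedom), two-sided. The fit was also run on simulated data with independent normal noise, which cannot speak to shared cultures or to the scaling. Genes with all values given are the regulators and those called in at least 1 comparison; related genes are named where called with an absolute difference of at least 0.58, at most 4 per list and comparison, and other called list genes, AKR1C4 and ABCB1 were added after their values were seen. The 35 genes, the lists and the tests were chosen with earlier results of these data known. Protein sequences were not used here; identities are of coding sequences. Alternatives changed the scaling, pseudocount, filter, unit, table, moderation, replicate block and libraries.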

Additional observations from a re-analysis of the deposited data

Results flagged for a closer look

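The NQO1 difference from PC9 was -0.39 in PC9-AMG and 0.28 in PC9-BrM4 on the log2(TPM + 1) scale, and the difference between these lines was -0.67 (adjusted p = 0.000584, limma). Both PC9-AMG libraries were below, and both PC9-BrM4 libraries above, both PC9 libraries. The 2 differences use the same PC9 libraries. The 40 chromosomal neighbours of NQO1 had medians of -0.21 in PC9-AMG and 0.27 in PC9-BrM4, each against PC9 (all tested genes -0.05 and 0.09). In PC9-AMG 2 of the neighbours were higher and 0 lower, beside 3.67% and 3.82% of all tested genes. In PC9-BrM4 6 were higher and 1 lower, beside 9.89% and 6.45%. The part of these neighbours was not tested. Both calls against PC9 were lost without any 1 of their 4 libraries (adjusted p up to 0.229 in PC9-AMG and 0.329 in PC9-BrM4), and the PC9-BrM4 call also with median centring, FPKM and the replicate block, among others. The call between PC9-AMG and PC9-BrM4 was kept under all 17 alternatives.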

How the results depend on the processing

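With 2 libraries per line, most calls near the threshold depended on single libraries. Leaving out 1 library in turn moved the genes called from 1096 to between 131 and 369 in PC9-AMG against PC9, from 2389 to between 892 and 1726 in PC9-BrM4 against PC9, and from 2720 to between 1024 and 2886 in PC9-AMG against PC9-BrM4; these fits hold fewer samples and take the spread of a lone library from the other groups. Of the 35 genes, 0 to 1 were then higher (3 in the full fit) and 2 to 3 lower (9) in PC9-AMG against PC9. In PC9-BrM4 against PC9, 0 to 1 were higher (2) and 8 to 13 lower (11). In PC9-AMG against PC9-BrM4, 10 to 12 were higher (11) and 2 to 5 lower (6). Without a filter on low values, 250 genes were called in PC9-AMG against PC9 and 1799 in PC9-AMG against PC9-BrM4, with 0 of the 35 higher and 3 lower in the first, and 1 higher in PC9-BrM4 against PC9. Moderation without the trend called 325 genes in PC9-AMG against PC9, with 1 of the 35 higher and 2 lower; it left 0 higher in PC9-BrM4 against PC9 and 2 lower in PC9-AMG against PC9-BrM4. Median centring, and FPKM likewise, left 4 of the 35 lower in PC9-AMG against PC9, 1 higher in PC9-BrM4 against PC9 and 2 lower in PC9-AMG against PC9-BrM4. Rescaling without the 100 highest genes left 1 higher in PC9-BrM4 against PC9. The cause was not tested.

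Scaling also moved the split of all calls. Higher and lower calls in PC9-AMG against PC9 were 537 and 559, and 685 and 436 with median centring or 902 and 561 with FPKM. In PC9-BrM4 against PC9 they were 1446 and 943, and 917 and 1293 with median centring or 1088 and 1253 with quantile normalization. In PC9-AMG against PC9-BrM4 they were 923 and 1797, and 1606 and 900 with median centring, 1326 and 1137 with quantile normalization or 1341 and 1283 with FPKM. Of the 35 genes, 13 were then higher and 2 lower with median centring and 11 and 2 with FPKM. Median centring moved the median of all genes from -0.13 to 0.04 in that comparison and from 0.09 to -0.02 in PC9-BrM4 against PC9. Over all alternatives for single genes, 1622 values kept their side of the threshold, 132 fell short of it and 31 passed it anew. Of values called in the main or the alternative fit, 0 changed direction. Values called in neither fit could change sign. GCLM in PC9-AMG against PC9 was at -0.15 and reached 0.04 over the alternatives.

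Replicate numbers did not pair the libraries: deviations of same-numbered libraries correlated at 0.00267 (PC9-AMG with PC9-BrM4), -0.0388 (PC9-AMG with PC9) and 0.0292 (PC9-BrM4 with PC9). With the number as a block, 1298, 2483 and 2905 genes were called in the 3 comparisons, in the order above. Of the 35 genes, 3 were then higher and 8 lower in PC9-AMG against PC9, 1 higher and 12 lower in PC9-BrM4 against PC9, and 11 higher and 7 lower in PC9-AMG against PC9-BrM4. Under the block NQO1 lost its call in PC9-BrM4 against PC9 and UGDH in PC9-AMG against PC9, while TXN (PC9-BrM4 against PC9) and ABCC3 (PC9-AMG against PC9-BrM4) were called lower.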
